A study of Mus musculus with 4 samples.

Results

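TRBV31 is the one variable segment of the mouse T cell receptor beta locus that lies downstream of the D, J and C segments. Its rearranged chains were examined here in T cells recovered from pancreatic islets of NOD mice, a strain that develops autoimmune diabetes, with and without the gene Tet2. A chain counted as a member when it was a productive, full-length, high-confidence TRB contig with TRBV31 as its V segment, in a barcode called as a cell. The rule found 925 such chains in 925 cells, of 13709 TRB chains in 13057 cells that carried one of 22 TRBV names. There were 154 and 127 TRBV31 chains in the libraries Tet2KO NOD 1 and 2, and 407 and 237 in NOD 1 and 2. Counting each distinct combination of V, J and CDR3 nucleotides once per library left 522 TRBV31 rearrangements of 8562, and pairing with a TRA chain in cells with 1 TRB gave 445 paired clonotypes of 7179.

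The study sequenced T cell receptors of single cells from islets of Tet2KO NOD mice and of NOD mice, the second labelled wild type. Tet2 encodes an enzyme that oxidises methylated cytosine in DNA. The Tet2 deletion came from the B6 strain and had been crossed to NOD for over 14 generations. Each of the 4 libraries pooled islets of 4 to 6 mice, and each genotype had 2 pools, numbered set 1 and set 2. The mice were 10 to 13 weeks old by the series' design, whereas the labels' protocol counts those weeks from an event it abbreviates and also mentions marrow donors, so the starting point is unsettled. Only receptor sequences were analysed here, so the tissue label could not be checked against marker genes.

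V(D)J recombination cuts beside recombination signal sequences, each a heptamer and a nonamer with a spacer between them, and joins a D to a J before a V is joined to that DJ. For most TRBV the intervening DNA is deleted, because the V points the same way as the D and J. TRBV31 points the opposite way and is joined by inverting the DNA between, which leaves that DNA in the chromosome. The join forms CDR3, the loop that contacts peptide most closely. Its ends are trimmed and filled with bases copied from opened hairpins (palindromic bases) and with bases added without a template.

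In the GRCm38 assembly, Trbv31 spans chr6:41557691-41558452 on the minus strand. It was the only 1 of 35 annotated TRBV, pseudogenes included, on the minus strand and the only 1 located 3′ of Trbc2. The distance from it was 9.34 kb to TRBC2, 13.83 kb to TRBJ2-7, 15.51 kb to TRBD2, 17.81 kb to TRBC1 and 24.48 kb to TRBD1, against 275.7 kb to TRBV30, the nearest of the TRBV measured upstream. The germline V bases that enter CDR3 lie at chr6:41557693-41557706, at the 3′ end of the coding exon. The 270 bases before CDR3 were 1 and the same sequence in all 925 chains and had 0 mismatches to the assembly. The sequences below show what each partner brings to the join, 5′ to 3′ in its own coding direction, with the flanking heptamers in capitals.
TRBV31 V end: tgtgcctggagtctCACACTG
TRBD1: CATTGTGgggacagggggcCACGGTG
TRBD2: CATTGTGgggactgggggggcCACAATG
The first 14 bases of TRBV31 encode Cys-Ala-Trp-Ser and the start of a further codon. Among the 18 TRBV names with at least 100 rearrangements, the others brought 14 to 17 germline bases.

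**Figure D1:**
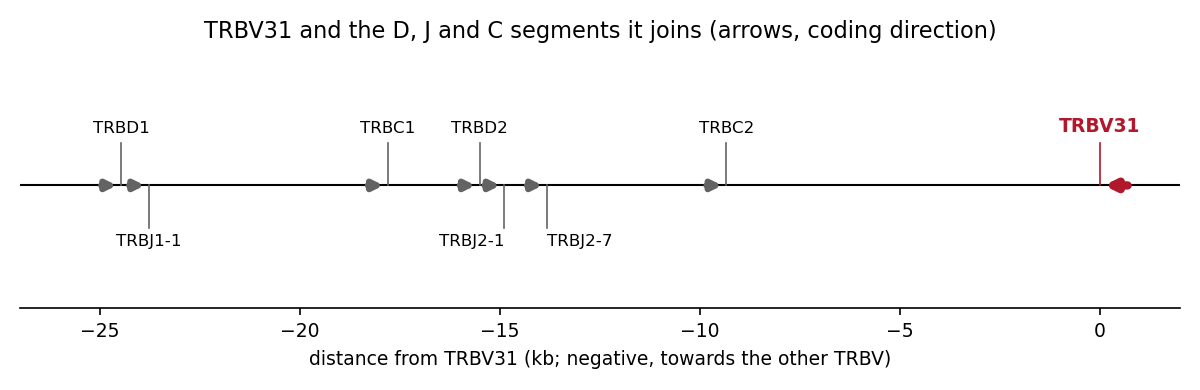
Positions of TRBV31 (red) and of the D, J and C segments (grey) along the TRB locus, as distance from TRBV31 in kb. Thin lines mark the positions, and arrows of fixed length point in the coding direction. TRBV31 alone points left, and TRBC2 is nearest at 9.34 kb.

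The libraries held 1664 to 6835 called cells and 899 to 3594 paired clonotypes, and 3.46% to 5.88% of cells with a TRB carried more than 1. The median TRB chain rested on 10 to 13 unique molecular identifiers (UMIs), and the contigs of a library summed to 85137263 to 220516119 reads. In all, 81 called barcodes occurred in more than 1 library, and 14 TRBV31 chains had such a barcode. Among cells with 1 TRB, the median TRBV31 chain rested on 9.5 and 10 UMIs in Tet2KO NOD 1 and 2 and 10 and 13 in NOD 1 and 2, and the mean of these medians was 10.6 for TRBV31 and 10.8 for the other TRBV (exact sign-flip permutation test, p = 1). The smallest p that test can give with 4 libraries is 0.125, so no comparison within libraries below can fall under 0.05, and the counts of libraries in each direction are given beside it. The pools are the replicates, and every p of the exact tests measures only the spread between these pools. Those of edgeR and DESeq2 below come from a count model, which also includes the counting error of clonotypes.

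TRBV31 was of middling abundance and did not differ detectably between the genotypes. It supplied 5.90% (53 of 899, 95% Wilson interval 4.54 to 7.63) and 6.65% (66 of 993, 5.26 to 8.37) of paired clonotypes in Tet2KO NOD 1 and 2, against 6.04% (217 of 3594, 5.31 to 6.86) and 6.44% (109 of 1693, 5.36 to 7.71) in NOD 1 and 2. The genotypes overlapped. The share averaged 6.27% ± 0.53 in Tet2KO NOD and 6.24% ± 0.28 in NOD (SD, n = 2 each), and edgeR's quasi-likelihood test over 124 V and J segments gave a log2 fold change of 0.02 (SE 0.16) with a Benjamini-Hochberg adjusted p of 0.992. Across all segments that test called 0.806% of those tested. Within set 1 the share was 0.14 percentage points lower in Tet2KO NOD (-0.14), and within set 2 it was 0.21 points higher. TRBV31 ranked 7 among the 22 TRBV names by clonotypes.

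Counted as cells, the share of TRBV31 varied more between pools. It held 8.48% and 7.04% of paired cells in Tet2KO NOD 1 and 2, against 5.48% and 8.36% in NOD 1 and 2. The difference of 0.84 percentage points between the genotype means was within the spread of the pools (exact permutation test, p = 0.667; the smallest p for 2 against 2 pools is 0.333). Set 1 and set 2 went opposite ways, at 3.00 points and -1.32 points. The TRBV whose share of clonotypes moved most like that of TRBV31 over the 4 libraries were TRBV5, TRBV14 and TRBV13-3, with Euclidean distances of centred log2 shares of 0.102, 0.133 and 0.206 among 17 TRBV compared.

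TRBV31 lost fewer bases of its V end than the other TRBV did on average. The whole germline end was present in 37.1% and 49.3% of TRBV31 rearrangements in Tet2KO NOD 1 and 2 and in 43.5% and 36.4% in NOD 1 and 2. The other TRBV together kept it in 22.3%, 20.2%, 23.2% and 22% of rearrangements of the same libraries, so every TRBV31 value lay above every value of the others. The means were 41.6% ± 6.04 for TRBV31 and 21.9% ± 1.26 for the other TRBV (SD, n = 4), a difference of 19.6 percentage points (exact sign-flip permutation test, p = 0.125). The share of germline V bases kept, the measure planned in advance, was 88.8% ± 0.77 for TRBV31 and 83.8% ± 0.31 for the others. It was higher in 4 of 4 libraries (exact sign-flip permutation test, p = 0.125). The whole-end share and the bases lost were added after the data were seen. An average TRBV31 rearrangement had lost 1.57 ± 0.11 V bases, against 2.67 ± 0.05 for the other TRBV, and lost fewer in 4 of 4 libraries. Since its germline end is also short, the V part left in CDR3 was shorter in 4 of 4 libraries, at 12.4 ± 0.11 bases against 13.7 ± 0.05.

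TRBV31 was not alone at this end of the range. TRBV2 kept its whole end in 50.8% of rearrangements, TRBV12-1 in 41.5%, and the median over the other TRBV was 18.6%. By the share of germline V bases kept, TRBV31 ranked 4 of 18, below TRBV2, TRBV5 and TRBV12-1. For TRBV10 the value was 0%, which the choice of productive chains fixed, since its germline end holds the in-frame stop codon taa. Leaving TRBV10 out moved the mean of the other TRBV to 22.6%. A base at the join was counted as germline V whenever it continued the V sequence, so an added base that happens to match is counted as kept.

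**Figure D2:**
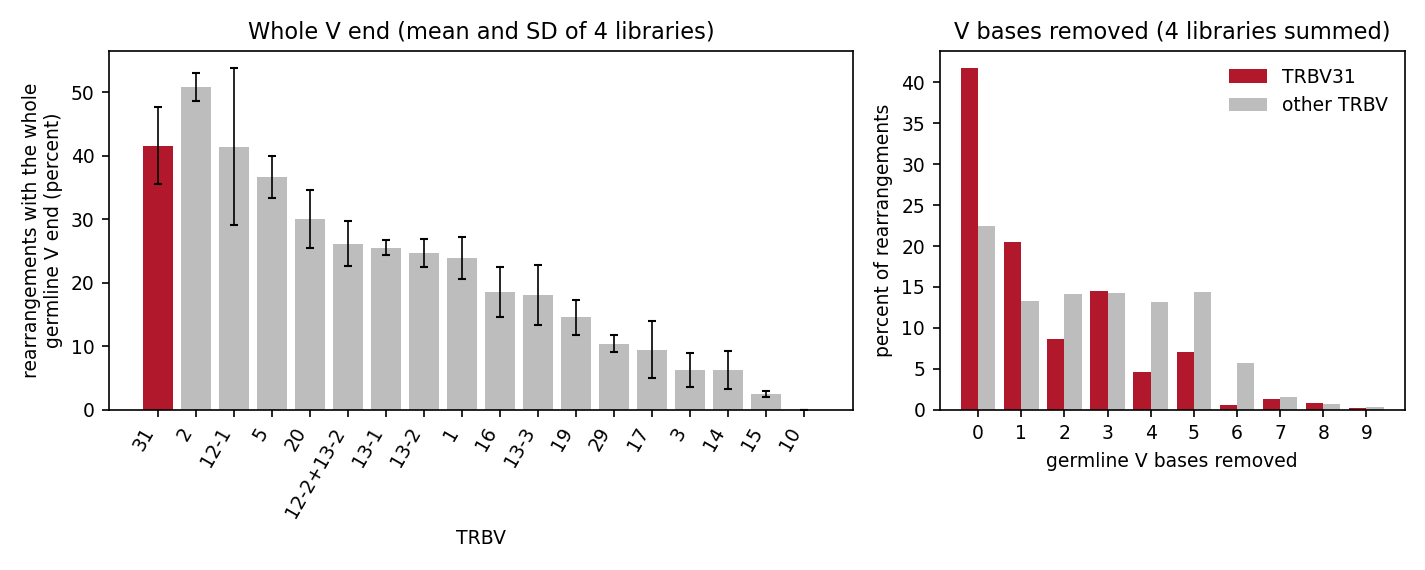
Left, percent of TRB rearrangements that kept the whole germline V end, for TRBV31 (red) and the other TRBV (grey), as bars with the mean and SD over 4 libraries. Right, percent of rearrangements by the number of germline V bases removed, summed over the libraries. TRBV31 had 41.8% of its rearrangements at 0 bases removed against 22.4% for the other TRBV.

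The base that followed a whole TRBV31 end was most often A, the palindromic base for an end in T. It was A in 14 of 23, 20 of 34, 62 of 114 and 27 of 47 such rearrangements of Tet2KO NOD 1, Tet2KO NOD 2, NOD 1 and NOD 2. Over the libraries this was 56.4% of 218, and 39% continued with AG. That is the palindrome 1 base longer, or an A before the start of a D, since TRBD1 and TRBD2 both begin with G. These were not told apart. After ends that had lost 1 base, A followed in 19.6% of 107, although there only 3 bases could follow, since a T would have been read as germline. The other TRBV whose germline end is not C had the palindromic base after a whole end in 51.5% of 1633 rearrangements.

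Most TRBV31 CDR3 loops began with the residues of the germline V end. Of 522 TRBV31 rearrangements, 97.1% began Cys-Ala-Trp and 79.9% began Cys-Ala-Trp-Ser. The next residue was leucine in 43.1% (95% Wilson interval 38.9 to 47.4), against 13.2% for proline and 8.62% for arginine in the same place. By library the start with leucine made up 37.1% and 50.7% in Tet2KO NOD 1 and 2 and 38.8% to 44.7% in the NOD libraries. Codons that start CT read leucine whatever the third base, and these are the last 2 bases of the germline end.

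The TRBV31 loops were short. They averaged 13.8 and 13.7 residues in Tet2KO NOD 1 and 2 and 13.7 and 13.6 in NOD 1 and 2, against 14.0, 14.1, 14.0 and 14.1 for the other TRBV. The difference of -0.34 residues ± 0.13 (SD over 4 libraries) held in 4 of 4 libraries (exact sign-flip permutation test, p = 0.125). Counting cells in place of rearrangements gave -0.16 residues, lower in 3 of 4 libraries. Loops of 16 or more residues were 7.47% of TRBV31 rearrangements and 14.8% of the others, while loops of 12 or fewer were 17.8% and 15%. TRBV31 ranked 3 from the shortest of 18 TRBV, after TRBV20 and TRBV15.

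The stretch between the V and J parts, made of D and added bases, did not differ detectably. It averaged 10.5 ± 0.43 bases for TRBV31 and 10.2 ± 0.15 for the other TRBV, longer in 3 of 4 libraries (exact sign-flip permutation test, p = 0.5). Without Tet2KO NOD 1 the difference of 0.27 bases became 0.022. In rearrangements to TRBJ2 it was 0.57 bases longer in 4 of 4 libraries (p = 0.125 by the same exact test), or 0.33 without Tet2KO NOD 1, and in those to TRBJ1 the difference was -0.17 bases. The number of J bases removed was 2.91 ± 0.28 for TRBV31 and 2.85 ± 0.07 for the others. The mean hydropathy of residues 6 and 7, on the Kyte-Doolittle scale, was -0.98 ± 0.19 for TRBV31 and -1.19 ± 0.06 for the other TRBV, higher in 3 of 4 libraries (exact permutation p = 0.25). Counting cells gave a difference of 0.062, higher in 2 of 4 libraries.

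In rearrangements to TRBJ2, TRBD1 was a smaller part of the matched D segments with TRBV31 than with the other TRBV. D was taken as the TRBD with the longer exact match between the V and J parts, of at least 6 bases, with ties left out. This placed 332 of 522 TRBV31 rearrangements. The split of these matches by J cluster was added after the data were seen. Within TRBJ2, TRBD1 made up 28.1% of 32 and 18.5% of 27 matched TRBV31 joins in Tet2KO NOD 1 and 2, and 23.8% of 122 and 24.6% of 57 in NOD 1 and 2. The other TRBV had 41.3%, 38.1%, 36.0% and 38.1% in the same libraries, above every TRBV31 value. The mean difference was -14.6 percentage points ± 3.32 (SD, n = 4; exact sign-flip permutation test, p = 0.125), the matched remainder being TRBD2, the D segment nearer to TRBV31.

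Within TRBJ1 the D segments were nearly all TRBD1, the D that lies upstream of TRBJ1. TRBD1 was 90.0% ± 4.39 of matched TRBV31 joins and 92.0% ± 0.84 of the others, higher with TRBV31 in 2 of 4 libraries. TRBD2 lies downstream of TRBJ1, and whether the TRBD2 matches in these joins are wrong assignments was not tested. The deposited D names covered fewer joins, 41.9% and 24.6% of TRBV31 rearrangements in Tet2KO NOD 1 and 2 and 24.4% and 21.7% in NOD 1 and 2. By those names TRBD1 was 61.9% ± 6.88 for TRBV31 and 66.3% ± 4.21 for the others, lower in 2 of 4 libraries (exact sign-flip permutation test, p = 0.5). The difference of -4.39 points became -0.58 without Tet2KO NOD 1 and -7.42 without Tet2KO NOD 2. Within TRBJ2 the difference by the deposited names was -6.15 points, lower in 3 of 4 libraries (exact sign-flip permutation test, p = 0.25).

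**Figure D3:**
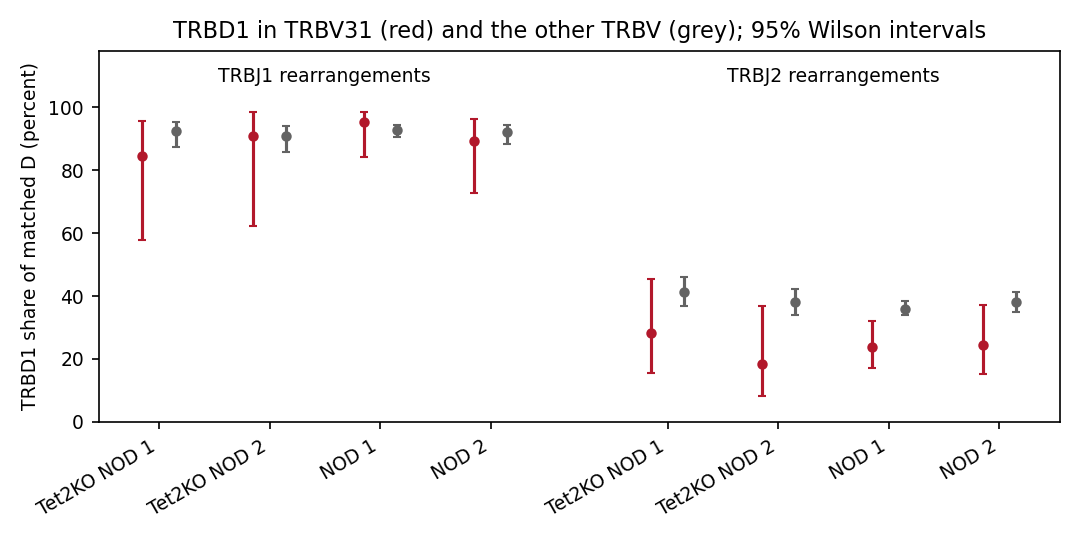
TRBD1 as a percent of rearrangements with a matched D, in TRBV31 (red, left of each pair) and the other TRBV (grey), by library, for TRBJ1 and TRBJ2 rearrangements. Bars are 95% Wilson intervals, for counting error only. In TRBJ2 the 4 TRBV31 points lie between 18.5% and 28.1%, below the other TRBV at 36.0% to 41.3%.

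All 12 TRBJ segments of the tables were joined to TRBV31, and the constant region followed the J. All 185 rearrangements to TRBJ1 with a named constant segment had TRBC1, and all 335 to TRBJ2 had TRBC2. TRBJ2-7 was the most frequent partner over the 4 libraries, with 17.7% and 13.0% of TRBV31 rearrangements in Tet2KO NOD 1 and 2 and 16.8% and 21.7% in NOD 1 and 2. TRBJ2-3 followed with a mean of 13.1% ± 3.92, equal to TRBJ2-7 in Tet2KO NOD 1 and above it in Tet2KO NOD 2 at 14.5%, and TRBJ2-5 with 12.5% ± 1.05. The TRBJ1 cluster took 33.9% and 36.2% of TRBV31 rearrangements in Tet2KO NOD 1 and 2 and 35.5% and 36.4% in NOD 1 and 2, against 32.2%, 33.1%, 34.0% and 31.5% for the other TRBV.

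The difference of the cluster share, 2.77 percentage points ± 1.59, held in 4 of 4 libraries (exact sign-flip permutation test, p = 0.125), but turned to -1.99 when cells were counted in place of rearrangements. TRBJ1-4 was the 1 segment higher with TRBV31 in 4 of 4 libraries, at 10.2% ± 1.89 against 7.43% ± 0.52 of rearrangements. Its edgeR log2 fold change was 0.15 on clonotype counts, but -0.44 counting cells and -0.056 with TMM factors for library size. TRBJ1-1, TRBJ2-2 and TRBJ2-7 were the 3 segments lower in 4 of 4, again counting rearrangements. On clonotype counts their edgeR log2 fold changes were -0.02, -0.55 and -0.28. That of TRBJ1-1 turned to 0.047 without Tet2KO NOD 1 and 0.36 without NOD 1, but was -0.44 without Tet2KO NOD 2. In that last library a single TRBJ1-1 chain, described below, counts as several clonotypes through its different alpha chain sequences. TRBJ2-7 averaged 17.3% ± 3.56 with TRBV31 and 20.5% ± 1.15 with the others. The TRBV with the most similar TRBJ usage were TRBV2, TRBV29 and TRBV13-1, with total variation distances of 0.0404, 0.0706 and 0.0885 against a median of 0.129.

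**Figure D4:**
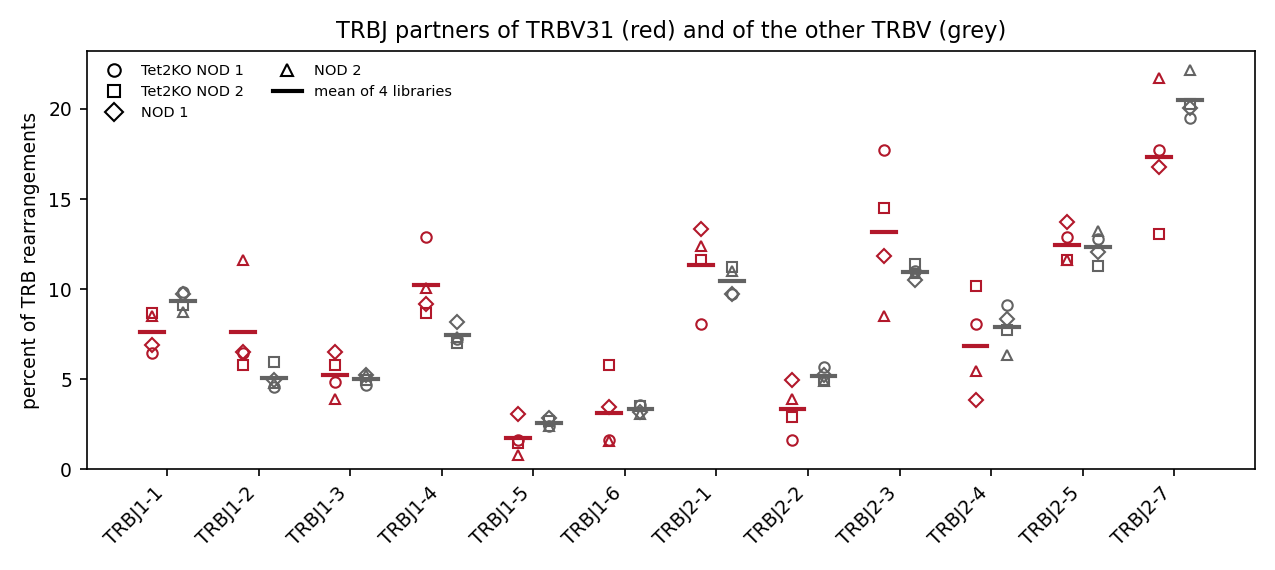
Percent of TRB rearrangements joined to each TRBJ, for TRBV31 (red, left of each pair) and the other TRBV (grey). Symbols are libraries and lines are means of 4 libraries. TRBJ2-7 has the highest mean for both, and TRBJ1-4 is higher with TRBV31 in all 4 libraries.

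No D, J or TRA segment was called as a preferred or avoided partner of TRBV31. In an edgeR quasi-likelihood test on clonotype counts, with library in the model, 0 of 116 segments had an adjusted p below 0.05, which is 0% of those tested, and 7 had an unadjusted p below 0.05. DESeq2 on the same counts also called 0, with 4 below 0.05 unadjusted. The same test on each of the other 17 TRBV called 0 to 4 segments, and the common dispersion of the TRBV31 fit, 0.0297, was the largest of the 18. None of the TRBJ differences above or the partner differences named below therefore passed the test.

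TRBV31 was paired with 59 TRAV and 42 TRAJ names, against 69 and 43 for the other TRBV, which had 6734 clonotypes to its 445. The most frequent TRAV by mean share were TRAV6D-6 (6.22%), TRAV10D (5.08%), TRAV21-DV12 (5.01%), TRAV7-4 (4.65%) and TRAV6N-7 (4.58%). Single libraries weighed on most of these means. TRAV6D-6 was 8 of 53 clonotypes in Tet2KO NOD 1, TRAV7-4 was 8 of 66 and TRAV6N-7 was 6 of 66 in Tet2KO NOD 2, and TRAV21-DV12 was 9 of 109 in NOD 2. TRAV10D was more even, at 5.66% and 4.55% in Tet2KO NOD 1 and 2 and 5.53% and 4.59% in NOD 1 and 2. It stood at 2.96%, 3.45%, 3.14% and 3.79% among the other TRBV, lower in each library. The most frequent TRAJ were TRAJ40 (5.02%), TRAJ49 (4.57%), TRAJ31 (4.26%), TRAJ48 (4.19%) and TRAJ53 (4.13%). TRAJ40 was 8 of 66 clonotypes in Tet2KO NOD 2, and its mean was 2.65% without that library. At least 5 of these 8 carried 1 and the same TRB sequence, described below. TRAJ48 was 10 of 109 in NOD 2.

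The segments with the smallest unadjusted p on the higher side were TRAV7-4, TRAV10N and TRAJ35. TRAV10N was 3.54% ± 0.34 of TRBV31 clonotypes and 1.73% ± 0.19 of the others, higher in 4 of 4 libraries, with a log2 fold change of 1.07 (SE 0.50, edgeR adjusted p = 0.668). TRAV7-4 had a log2 fold change of 1.27 (SE 0.48, edgeR adjusted p = 0.508). Leaving out 1 library at a time gave 0.60 to 1.70, and 8 of its 18 TRBV31 clonotypes were in Tet2KO NOD 2. TRAJ35 was 1.74% ± 1.32 of TRBV31 clonotypes and 0.82% ± 0.27 of the others. On the lower side, TRAV14-1 paired with 0 of 445 TRBV31 clonotypes, which allows up to 0.674%, against 65 of 6734 others. TRAV13-2 paired with 1 TRBV31 clonotype and 102 others, and TRAV5-4 was 3.51% ± 1.47 of TRBV31 clonotypes and 7.07% ± 0.53 of the others.

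No alpha chain of the invariant T cell lineages was seen with TRBV31, and the depth was too low to set this apart from the others. The alpha chain of invariant natural killer T cells, TRAV11 with TRAJ18, was found in 0 of 445 TRBV31 clonotypes and 24 of 6734 others. That of mucosal-associated invariant T cells, TRAV1 with TRAJ33, was found in 0 and 5. The limit for 0 of 445 is 0.674%, above the 0.356% and 0.0743% of the others, so an equal share was not detectable at this depth. Chains of the TRAV16 family with TRAJ42 and of the TRAV5 family with TRAJ53 or TRAJ42 numbered 1 each, against 56 and 66 among the other TRBV.

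The share of cells with a further TRA was lower for TRBV31 in each library. Of cells with a TRA, 2.94% and 10.2% had 2 or more in Tet2KO NOD 1 and 2, and 10.2% and 7.73% in NOD 1 and 2, against 11.3%, 10.9%, 12.6% and 13.3% for the other TRBV. The difference of -4.27 percentage points ± 3.39 had the same direction in 4 of 4 libraries (exact sign-flip permutation test, p = 0.125), and was -2.41 points, again in 4 of 4, with 1 value for each rearrangement. Cells with no TRA were 12.2% ± 4.54 for TRBV31 and 10.9% ± 1.89 for the others, higher in 2 of 4 libraries. With 1 value for each rearrangement they were 14.2% and 11.8%, higher for TRBV31 in 4 of 4.

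Most TRBV31 clonotypes were seen once, and a few were among the largest of their library. Of 445, 389 had 1 cell, 35 had 2 to 4 and 21 had 5 or more. Clonotypes of at least 2 cells were 18.87% and 13.6% of TRBV31 clonotypes in Tet2KO NOD 1 and 2 and 12.4% and 9.17% in NOD 1 and 2, against 18.91%, 14.9%, 13.6% and 13.4% for the other TRBV. The difference of -1.67 percentage points ± 1.82 was below 0 in 4 of 4 libraries (exact sign-flip permutation test, p = 0.125), with Tet2KO NOD 1 at -0.045. It was -0.80 without NOD 2, -0.66 with the libraries thinned to the smallest, -0.23 with cells of more than 1 TRB kept, and -1.20 by the deposited clonotype numbers, where 2 of 4 libraries were above 0. It turned to 1.24 for clonotypes of at least 3 cells. The share of cells in clonotypes of at least 2 was 50.0% ± 13.7 for TRBV31 and 44.1% ± 6.60 for the others, higher in 3 of 4 libraries. Without the largest TRBV31 clonotype of each library the difference was -1.68 points. The other TRBV kept all their clonotypes there, so that step could only lower the TRBV31 share.

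**Figure D5:**
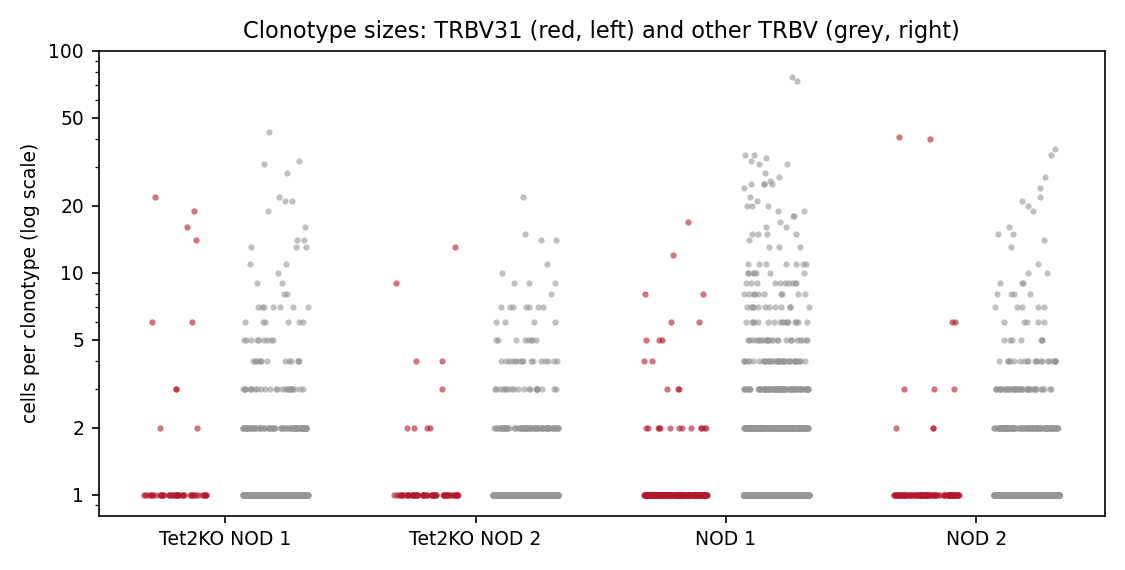
Cells per paired clonotype (log scale) for TRBV31 (red) and the other TRBV (grey) in each library; each point is a clonotype, spread sideways. The 2 largest clonotypes of NOD 2, with 41 and 40 cells, are TRBV31.

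In NOD 2 the 2 largest clonotypes of the whole library were TRBV31 and together held 81 of its 207 paired TRBV31 cells (39.1%). The largest clonotype had 22 cells in Tet2KO NOD 1, 13 in Tet2KO NOD 2, 17 in NOD 1 and 41 in NOD 2, and ranked 5, 5, 26 and 1 by size in those libraries. The CDR3 coding sequences of these and of the next in NOD 2 are printed with the bases between the V and J parts in capitals. The capitals include D bases as well as added ones.
Tet2KO NOD 1: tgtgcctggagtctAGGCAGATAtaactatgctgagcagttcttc
Tet2KO NOD 2: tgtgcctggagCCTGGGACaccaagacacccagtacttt
NOD 1: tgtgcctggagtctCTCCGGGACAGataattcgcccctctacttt
NOD 2, 41 cells: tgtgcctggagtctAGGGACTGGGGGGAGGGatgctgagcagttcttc
NOD 2, 40 cells: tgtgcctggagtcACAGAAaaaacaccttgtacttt
Their alpha chains were TRAV7N-4 with TRAJ31, TRAV6-1 with TRAJ9, TRAV12N-2 with TRAJ42, TRAV3-1 with TRAJ52 and TRAV6-4 with TRAJ26, in that order. The 40-cell clonotype had 6 bases between V and J, all that did not match a germline end. The 21 clonotypes of at least 5 cells used 18 TRAV and 17 TRAJ, and 7 were TRBJ1 and 14 TRBJ2. Of them 17 began Cys-Ala-Trp-Ser and 9 kept the whole V end. These counts include 2 clonotypes of 6 cells each in NOD 1 with the same TRB, joined to TRBJ1-6. Both alpha chains were present in 10 of its 12 cells, so 1 clone may be counted as 2.

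One TRBV31 chain of Tet2KO NOD 2 was paired with 5 different alpha chain sequences that encode the same CDR3. The TRB, joined to TRBJ1-1, was a single nucleotide sequence in 21 cells. In 16 paired cells with 1 TRB, the alpha chain was TRAV7-4 with TRAJ40 and 1 amino acid sequence, and its 39 bases differed at 3 positions, 12, 15 and 18 from the first base of the cysteine codon, shown in capitals beside the beta chain.
TRB, between V and J in capitals: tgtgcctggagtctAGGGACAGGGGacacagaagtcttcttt
TRA in 9 cells: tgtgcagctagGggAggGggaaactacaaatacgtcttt
TRA in 4 cells: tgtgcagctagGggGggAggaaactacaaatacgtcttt
TRA in 1 cell: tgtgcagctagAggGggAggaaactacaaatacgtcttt
TRA in 1 cell: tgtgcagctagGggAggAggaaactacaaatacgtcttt
TRA in 1 cell: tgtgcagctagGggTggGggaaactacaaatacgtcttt
The 3 sequences found in 1 cell each rested on 20, 10 and 9 UMIs. A further cell had the same TRB with TRAV7-1 and TRAJ40. Of all 21 cells, 2 had no TRA, 3 carried TRAV8D-2 with TRAJ31 and 1 carried TRAV5-4 with TRAJ34 beside the TRAV7-4 chain. Counted as clonotypes, these 5 made up 5 of the 8 TRAV7-4 clonotypes of that library, and counting them once lowered the TRAV7-4 share there to 6.45%, against 12.1% as counted. Among rearrangements of at least 3 paired cells, 1 of 33 with TRBV31 and 9 of 526 with other TRBV had more than 1 TRA sequence of the same CDR3, and the other TRBV had at most 3.

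A second TRBV31 chain, in Tet2KO NOD 1, was split between 2 alpha chains. It was a single nucleotide sequence, joined to TRBJ2-5, in 35 cells. Of these, 19 had TRAV6D-6 with TRAJ12, 14 had TRAV6D-6 with TRAJ30, 2 had no TRA and none had both. Counted by TRB alone it was larger than the 22-cell clonotype of that library. Its last 8 residues, Gly-His and the TRBJ2-5 part, ended 6 TRBV31 clonotypes, the largest of Tet2KO NOD 2 among them. Of the 6, 4 had a TRAV6-family alpha chain, and 2 of these 4 are the split chain itself. That family was in 11 of 54 TRBV31 clonotypes with TRBJ2-5 and in 67 of all 445. With other TRBV, it was in 1 of 5 clonotypes with this ending. This ending was chosen after the values were seen, and it has no test.

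Between libraries, 8 of 512 TRBV31 CDR3 amino acid sequences recurred (1.56%), against 138 of 7820 for other TRBV (1.76%). In 4 of the 8 the nucleotides differed between libraries. One, joined to TRBJ1-6, was carried by 12 cells of NOD 1 and 2 of NOD 2 with the same TRA amino acid sequence (TRAV14N-2, TRAJ37), and both chains were written in other bases in each pool. The differing bases are in capitals.
NOD 1 TRB: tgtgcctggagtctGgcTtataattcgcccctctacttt
NOD 2 TRB: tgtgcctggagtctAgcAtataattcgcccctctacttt
NOD 1 TRA: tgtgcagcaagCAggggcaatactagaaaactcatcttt
NOD 2 TRA: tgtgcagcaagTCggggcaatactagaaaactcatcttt
In NOD 1, 10 of the 12 cells carried a further alpha chain, TRAV15-2-DV6-2 with TRAJ32, which was in neither NOD 2 cell.

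A like pair crossed the genotypes. One TRBV31 amino acid sequence, joined to TRBJ2-3, was found in 3 cells of Tet2KO NOD 2 with TRAV10N and TRAJ43, and in 12 cells of NOD 1 with TRAV10D and TRAJ43. The alpha CDR3 differed in 1 residue, alanine in Tet2KO NOD 2 and serine in NOD 1. The TRB bases differed at 4 positions and the TRA bases at 2, in capitals.
Tet2KO NOD 2 TRB: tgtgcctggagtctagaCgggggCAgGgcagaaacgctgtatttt
NOD 1 TRB: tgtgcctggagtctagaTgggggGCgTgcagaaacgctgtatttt
Tet2KO NOD 2 TRA: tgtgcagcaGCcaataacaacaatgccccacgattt
NOD 1 TRA: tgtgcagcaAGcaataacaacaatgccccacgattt

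The other 4 recurrent sequences had the same nucleotides in Tet2KO NOD and NOD libraries of the same set number. One, joined to TRBJ2-7, was in 1 cell each of Tet2KO NOD 1 and NOD 1 with the same alpha chain (TRAV5N-4, TRAJ27), on 18171 and 21309 reads and under different barcodes. The 41-cell clonotype's TRB was in 3 cells of Tet2KO NOD 2 and 43 of NOD 2. The TRB with the 5 TRAV7-4 sequences was also in 1 NOD 2 cell, which had 140 reads, against at least 7113 in each of the 21 cells of Tet2KO NOD 2, and its barcode carried the same chain there. For the 41-cell clonotype's TRB, 30 of the 43 NOD 2 cells and 1 of the 3 Tet2KO NOD 2 cells had a barcode that also held this TRB in another library. The last of the 4, joined to TRBJ1-3, was in 1 cell each of Tet2KO NOD 1 and NOD 1, and only the barcode of the Tet2KO NOD 1 cell held it in another library too.

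Chains of TRBV31 shared a cell with a second productive TRB in 81 of 925 cases, and no cell had TRBV31 on both. The share was 1.30% and 5.51% in Tet2KO NOD 1 and 2 and 14.5% and 5.49% in NOD 1 and 2, against 7.14%, 7.97%, 10.9% and 8.84% for the other TRBV. The high value of NOD 1 came from 1 pair, as 26 cells carried the same TRBV31 chain with the same TRBV15 chain. Without that pair NOD 1 had 8.66%, a step taken for TRBV31 alone that could only lower its share. Counting each rearrangement once put TRBV31 below the others in 4 of 4 libraries by 3.03 points on average (-3.03, exact sign-flip permutation test, p = 0.125). In NOD 1 that difference was -0.16 points.

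Nonproductive TRBV31 contigs of called cells numbered 166, and 160 lay in cells with a productive TRB, 2 of them a TRBV31. They were 11% and 8.63% of full-length TRBV31 contigs in Tet2KO NOD 1 and 2 and 23.1% and 5.20% in NOD 1 and 2, against 6.18%, 6.88%, 6.87% and 8.0% for the other TRBV (exact sign-flip permutation test, p = 0.375). In NOD 1, 70 contigs were of 2 rearrangements. One, to TRBJ1-2, had 40 contigs, 39 of them in cells with the same productive TRBV3 chain and 20 of these with a second TRBV3 chain besides, and the other, to TRBJ2-4, had 30 contigs, all in cells with the same productive TRBV1 chain. Without these 2 the NOD 1 share was 11.3%, with none left out for the other TRBV, so that step could only lower it. In 133 of the 166 the deposited table gave a sequence that starts 2 bases later in the V end (tgcctgg) as CDR3, so lengths of nonproductive joins were not compared.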

How the data were processed

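Islet T cells of 4 pools were profiled by single-cell TCR sequencing. The authors deposited 1 contig table per library, with V, D, J, C, CDR3, and read and UMI counts per contig, per the file headers. Cell Ranger 7.0.1 and GRCm38 (mm10) are named in the submitters' processing notes, and no source used here gives the V(D)J reference. Counts were used as deposited. Wilson intervals and limits for a count of 0 (3 counts) are at 95% and cover counting error only.

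Germline ends were read from GRCm38 with GENCODE annotation, and CDR3 was split into the longest V and J matches. The name TRBV10 of the files matched the sequence annotated as Trbv4. Clonotype counts were tested with edgeR 4.0.16 (quasi-likelihood, segments with 10 counts in 2 libraries, or for partners a total of 20) and DESeq2 1.42.0 in R 4.3.3, and within-library differences by exact permutation tests in Python 3.11.15. Scripts were tested on simulated data. TRBV31, its segments, the 5 most frequent TRAV and TRAJ, the 3 with the smallest p each way, and clonotypes of 5 or more cells or in more than 1 library were named. These members and lists were chosen with earlier results of these data known.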

Additional observations from a re-analysis of the deposited data

Results flagged for a closer look

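The report used only called cells. Outside them, productive TRBV31 contigs were 10.8% (186 of 1717, 95% Wilson interval 9.45 to 12.4) and 10.4% (194 of 1869, 9.08 to 11.8) of productive TRB contigs in Tet2KO NOD 1 and 2, and 6.97% (250 of 3585) and 8.67% (142 of 1638) in NOD 1 and 2. The mean was 10.6% ± 0.32 in Tet2KO NOD and 7.82% ± 1.20 in NOD (SD, n = 2 each), with both Tet2KO NOD pools above both NOD pools (exact permutation test, p = 0.333, the smallest possible). Of the 22 TRBV names, 13 (59.1%) had genotypes that did not overlap in this measure, in either direction. In called cells TRBV31 was 7.80% and 7.49% of TRB chains in Tet2KO NOD 1 and 2, and 5.75% and 8.0% in NOD 1 and 2.

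Many of these contigs repeated a called cell of another library, with the same barcode and the same TRB: 135 of 186 and 78 of 194 in Tet2KO NOD 1 and 2, and 152 of 250 and 65 of 142 in NOD 1 and 2. These were 73%, 40.2%, 60.8% and 45.8% of the TRBV31 contigs, against 64%, 38.8%, 35.4% and 37.8% of those of the other TRBV in the same libraries. Their median read counts were 61.5 to 100. The 40-cell TRBV31 clone of NOD 2, which no called cell of another library carried, gave 24 and 19 such contigs in Tet2KO NOD 1 and 2 and 32 in NOD 1, of which 23, 17 and 29 had the barcode of a NOD 2 cell. With such contigs left out for all TRBV, the TRBV31 share was 8.47% and 10.2% in Tet2KO NOD 1 and 2, and 4.35% and 7.65% in NOD 1 and 2.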

How the results depend on the processing

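Of the alternatives to the main comparisons, 13 turned the direction and 105 did not. In the exact tests within libraries the smallest possible p was 0.125, or 0.25 with 1 library left out. No alternative there could fall under 0.05, and the partner counts of 0 have no direction to turn. For details of the join 3 more turned it, and 28 alternatives changed the sign of a partner segment's fold change, none of them called; the other 345 did neither. Counting cells gave -1.99 points for the TRBJ1 share and 0.0383 points for the TRBD1 share by deposited names; TRBJ1 joins alone gave -0.17 bases between V and J; clonotypes of 3 or more cells gave 1.24 points, and leaving out the largest TRBV31 clonotypes -1.68 points. The chain's median UMI difference of -0.125 became 0 per rearrangement, 0.0711 as mean log2 UMIs and 4005 as reads. The Tet2KO NOD over NOD log2 fold change of TRBV31 became -0.074 counting rearrangements. Leaving out 1 library at a time gave -0.0686 to 0.104 for that fold change (-0.0686 without Tet2KO NOD 2 and -0.0337 without NOD 1), -0.97 to 2.57 points for cells with no TRA, -0.333 to 0.167 for UMIs, -0.0445 to 0.148 for J bases removed, -0.0883 to 7.08 points for deposited D names and -2.21 to 4.78 points for D matches. The cause was not tested. The whole V end stayed 16.5 to 21.4 points higher, and the loop difference -0.393 to -0.291 residues, against -0.16 counting cells. The same ranges were -0.74 to -3.88 points for chains in cells with a second TRB (without Tet2KO NOD 1 and without NOD 1), 2.88 to 10.2 points for cells in clonotypes of at least 2 (same libraries), and 1.25 to 7.58 points for nonproductive contigs (without NOD 1 and without NOD 2). With set number as a replicate block, the fold change was 0.0048 (edgeR adjusted p = 0.997) and 0 of 124 segments were called, against 1. Same-numbered deviations correlated at -0.167 over 124 segments. With only 2 pairs this cannot settle whether the set numbers pair the pools. The recurrent sequences with the same nucleotides each lay in libraries of the same set number. A crossed block, added after the data were seen, also called 0. The partner test without library in the model (no replicate block) called 0 of 116. Alternatives added after the data were seen were the D match within a J cluster, TRBV10 left out, cells counted for V bases, nonproductive contigs with a J, and leaving out each library for the whole V end, V and J bases, deposited D names and D matches. Measures added then were the whole V end, the V bases removed and left in CDR3, the J bases removed, and the shares with a D named or matched. With 62 and 69 TRBV31 rearrangements in the Tet2KO NOD libraries, depth limits every share there.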
